A study of Mus musculus with 18 samples.

Results

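The genes described here are imprinted genes known for their roles in growth, namely Peg3, Plagl1, Igf2, H19, Dlk1, Cdkn1c, Grb10, Ndn, Nnat and Igf2r. They were chosen by name, and the choice began with Peg3, picked because its signal was among the large increases in diabetic fat. The difference between STZ, SD and Con, SD mice was thus used to choose the genes, so it is given for them as a description without a p-value. For Peg3 no p-value is given in any comparison, because each one shares arrays with that contrast. Counts that include Peg3 are printed only beside the share of all genes, and nothing is read from them. Of the 10 genes, 9 had a probe set named for that gene alone, out of 19938 genes measured, and each of the 9 had exactly 1 such probe set. H19, a maternally expressed long non-coding RNA, had none in the table of names used here and has no value.

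Visceral fat of 18 male wild-type C57BL/6N mice, 5 to 6 months of age, was measured on 1 microarray for each mouse. The 5 STZ, BEZ mice received streptozotocin (STZ), a toxin of the insulin-producing beta cells, and bezafibrate (BEZ), an activator of all peroxisome proliferator-activated receptors (PPARs), in standard diet (SD). The 6 STZ, SD mice received STZ and standard diet alone, and the 7 Con, SD mice were mock-injected with citrate buffer and fed standard diet. Per the labels, STZ was given at 65 mg/kg on 5 days at 10 to 16 weeks of age, and BEZ at 0.25 or 0.5% of the food for 8 weeks from 2 weeks after STZ. The paper's methods give another STZ schedule and describe the control mice as untreated rather than mock-injected, and which account applies to a given mouse is not known here. No group of control mice fed BEZ was on these arrays, so an effect of BEZ without diabetes cannot be told apart from one that needs it.

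Imprinted genes are expressed mainly from 1 parental allele, and the silent allele carries marks set in the germ line. Several of them form an antagonistic system around fetal growth, in which paternally expressed genes such as Igf2 promote growth and maternally expressed genes such as Igf2r, Grb10 and Cdkn1c restrain it. In fat, Dlk1 is known as a brake on the formation of adipocytes, and Mest and Peg3 have been studied in connection with fat mass. An array signal does not tell the alleles apart, so loss of imprinting could not be seen here.

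Some arrays stood apart before any gene was considered. White adipocyte markers, 11 of 12 of them measured, had a mean log2 signal of 12.37 to 12.62 in STZ, BEZ, 10.41 to 12.52 in STZ, SD and 12.05 to 12.66 in Con, SD mice. Pancreatic markers, 15 of 19 measured, had a mean of 5.92 to 11.05 in STZ, BEZ, 5.77 to 12.95 in STZ, SD and 5.81 to 6.15 in Con, SD mice. The high values were those of STZ, BEZ replicates 1 to 4 and STZ, SD replicate 6, referred to below as the 5 arrays of high pancreas signal. STZ, SD replicate 6 had the highest pancreatic mean, 12.95, and the lowest adipocyte mean, 10.41, of all 18 arrays, so its markers go against a label of fat alone. Epididymis and testis markers, 15 of 17 measured, had a mean of 5.95 to 6.72 in STZ, BEZ, 5.96 to 11.38 in STZ, SD and 7.00 to 11.57 in Con, SD mice. The highest were Con, SD replicates 3 and 5 (11.02 and 11.57) and STZ, SD replicate 3 (11.38), referred to below as the 3 arrays of high epididymis signal, and all other arrays were at 9.23 or below. The effect of these admixed signals on the imprinted genes was not tested beyond the values given beside each result. In whole tissue, fewer cells of a type and less RNA per cell cannot be told apart.

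Peg3, a zinc-finger transcription factor expressed from the paternal allele, had log2 signals of 9.70, 10.42, 9.68, 10.55 and 11.16 in the 5 STZ, BEZ mice. In STZ, SD mice the lowest, median and highest values were 8.88, 9.72 and 10.81, and in Con, SD mice they were 7.83, 8.16 and 8.93. STZ, SD mice fell into high arrays (replicates 2, 4 and 5, at 10.81, 10.32 and 10.53) and arrays near the highest control (replicates 1, 3 and 6, at 9.11, 8.88 and 8.95). All 6 STZ, SD mice lay above the mean of the Con, SD mice, and the groups overlapped only because 8.88 is below the highest control. All STZ, BEZ values lay above all Con, SD values. The mean was 10.30 ± 0.62 in STZ, BEZ (SD, n = 5), 9.77 ± 0.88 in STZ, SD (n = 6) and 8.31 ± 0.47 in Con, SD mice (n = 7).

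On the log2 scale Peg3 was 1.46 higher in STZ, SD than in Con, SD mice (standard error, SE, 0.35), a 2.74-fold difference. In STZ, BEZ it was 1.99 higher than in Con, SD mice (SE 0.37, 3.98-fold) and 0.53 higher than in STZ, SD mice (SE 0.38). The step between both STZ groups was thus about as large as its error, and the treated mice were not nearer to the controls. Of the STZ, BEZ mice, replicate 5, with the lowest pancreatic mean of its group at 5.92, had the highest Peg3 value. Without the 5 arrays of high pancreas signal the difference to Con, SD was 2.85 for STZ, BEZ, which then rests on 1 mouse, and 1.62 for STZ, SD. Without the 3 arrays of high epididymis signal it was 1.88 for STZ, BEZ and 1.53 for STZ, SD.

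The promoter of Peg3 is shown because CG dinucleotides are where the marks of imprinting are written, and Peg3 gave the largest increase among the members. The RefSeq window of 300 bases around the transcript start, chr7:6730370-6730669, minus strand, build GRCm38.p6, held 13 CG dinucleotides (in capitals), more than 62.1% of 32851 mouse promoters, whose median was 7. It also held 1 match to GGGGCCCC, the core letters of the site bound by the product of Plagl1. Searched on both strands, these letters were found in 1.08% of all promoters. A forkhead site (GTAAACA) and a nuclear receptor half-site (AGGTCA) were searched as well, and the Peg3 window held 0 of each. Among the other members, Dlk1 held 2 forkhead sites, and an Igf2 window and that of Igf2r held 1 half-site each. A match is a description and does not show binding.
Peg3: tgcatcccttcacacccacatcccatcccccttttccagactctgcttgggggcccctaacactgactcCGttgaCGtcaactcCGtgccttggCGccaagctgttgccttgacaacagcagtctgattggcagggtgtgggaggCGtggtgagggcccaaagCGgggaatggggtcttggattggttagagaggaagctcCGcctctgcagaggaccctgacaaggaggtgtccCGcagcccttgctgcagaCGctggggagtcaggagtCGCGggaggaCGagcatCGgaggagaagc

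**Figure D1:**
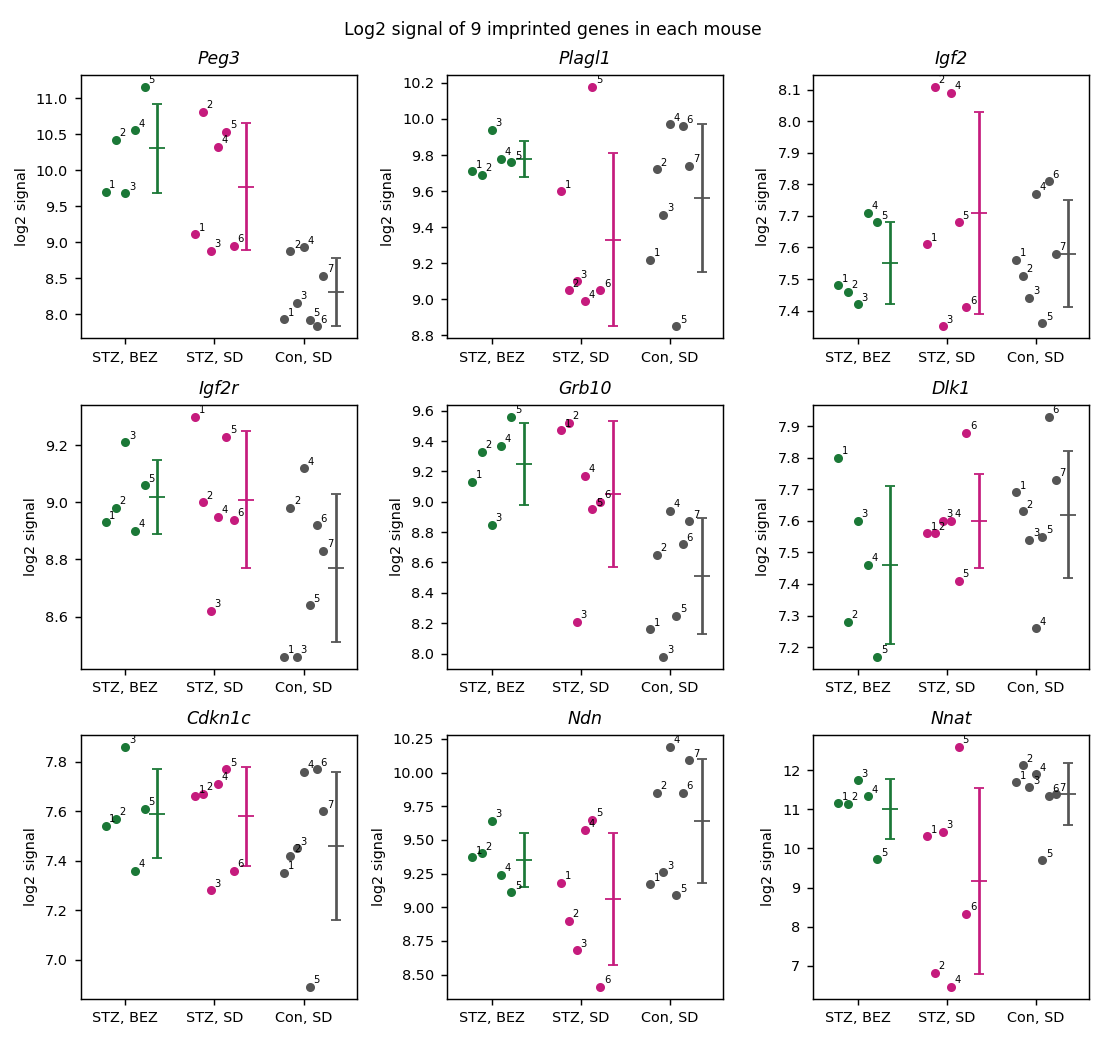
Log2 signal (vertical axis, a different range in each panel) of the 9 measured genes in each mouse, with the replicate number beside each point, for STZ, BEZ (green), STZ, SD (magenta) and Con, SD (grey). Bars show the mean and SD; Peg3 shows all STZ, BEZ mice, between 9.68 and 11.16, above all Con, SD mice, and Nnat shows STZ, SD mice spread between 6.47 and 12.59.

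Zim1, a zinc-finger gene next to Peg3 with no protein-coding gene between them, and mainly expressed from the maternal allele, was higher in both STZ groups. Its log2 signals were 6.56, 7.55, 6.27, 7.99 and 8.87 in STZ, BEZ mice, with a lowest, median and highest value of 6.06, 7.06 and 8.98 in STZ, SD and 5.48, 5.73 and 5.82 in Con, SD mice. No array of either STZ group overlapped with the controls. The difference was 1.56 for STZ, SD vs. Con, SD (SE 0.45, limma adjusted p = 0.0532) and 1.76 for STZ, BEZ vs. Con, SD (SE 0.48, adjusted p = 0.0542). The first call was lost when STZ, SD replicate 2 or 4 was left out (adjusted p up to 0.128), and the second when STZ, BEZ replicate 2, 4 or 5 was left out (up to 0.183), all 5 arrays of high pancreas signal or the 3 of high epididymis signal. The difference between both STZ groups was 0.21 (95% interval -0.83 to 1.25). Usp29, the gene on the other side, had a difference of -0.03 (SE 0.09) for STZ, SD vs. Con, SD. Its mean in Con, SD mice, 4.67, was above that of only 7.3% of all genes. At so low a signal, a flat value cannot show that Usp29 did not change.

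Zim1 was also 1 of the 5 genes most like Peg3 across arrays after each group's mean was taken off. Pearson's r with Peg3 over the 18 arrays was 0.874 for Olfr1033 (an olfactory receptor gene), 0.868 for Thbs2 (thrombospondin 2), 0.866 for Dhrs9 (a dehydrogenase), 0.863 for Eda2r (an ectodysplasin receptor) and 0.852 for Zim1. Without the 2 arrays whose Peg3 value lay farthest from their group's mean, the r of Zim1 was 0.789 and that of Thbs2 was 0.871. These are descriptions of the closest of all genes and carry no test. Among the other 8 measured members, Igf2 was the closest to Peg3 (r = 0.696) and Dlk1 went the other way (r = -0.623). With the pancreatic list, r was -0.485 for Peg3 and 0.613 for Dlk1. The part of pancreatic signal in their opposite pattern was not tested. For Peg3, r was 0.697 with endothelial, 0.584 with macrophage, 0.556 with adipose progenitor and 0.518 with mesothelial markers. It was 0.287 with white adipocyte, 0.068 with skeletal muscle and -0.379 with epididymis and testis markers. The mesothelial mean had a median of 9.13 in STZ, BEZ, 9.17 in STZ, SD and 8.31 in Con, SD mice. In STZ, SD replicates 3, 6 and 1, low for Peg3, it was 8.46, 7.82 and 9.20. The part of these cells in the Peg3 values was not tested.

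**Figure D2:**
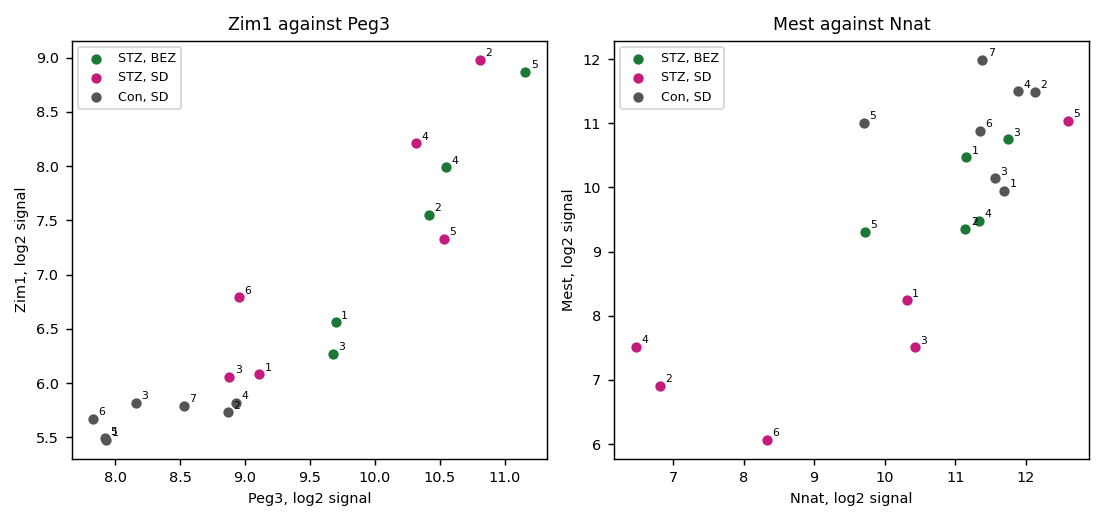
Log2 signals of pairs of imprinted genes in each mouse, Zim1 against Peg3 (left) and Mest against Nnat (right), with the replicate number beside each point, in STZ, BEZ (green), STZ, SD (magenta) and Con, SD (grey). The arrays with the highest Peg3 values also have the highest Zim1 values, and Con, SD mice lie at the low end of both, while the lowest Nnat and Mest values are those of STZ, SD mice.

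Plagl1, also called Zac1, is a paternally expressed zinc-finger factor that acts on other imprinted genes. It had log2 signals of 9.71, 9.69, 9.94, 9.78 and 9.76 in STZ, BEZ mice, against a lowest, median and highest value of 8.99, 9.07 and 10.18 in STZ, SD and 8.85, 9.72 and 9.97 in Con, SD mice. The 5 treated mice lay within 0.25 of each other, and 4 of the 6 STZ, SD mice lay between 8.99 and 9.10. The difference was 0.45 for STZ, BEZ vs. STZ, SD (SE 0.22, 95% interval -0.01 to 0.91, limma adjusted p = 0.506) and 0.22 for STZ, BEZ vs. Con, SD (SE 0.21, adjusted p = 0.638). It was -0.23 (SE 0.20) for STZ, SD vs. Con, SD. The mean of the STZ, SD mice was thus the lowest of the groups for Plagl1 and between the others for Peg3. STZ, SD replicates 5 and 1, at 10.18 and 9.60 for Plagl1, had white adipocyte means of 12.52 and 12.40. The other 4 had 11.71 or below. With group means taken off, Pearson's r of Plagl1 with the white adipocyte list was 0.746 over the 18 arrays. The part of adipocyte content in the Plagl1 values was not tested.

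Among the genes of the insulin-like growth factor (IGF) system, Grb10 stood out. Grb10 encodes an adaptor that binds the insulin and IGF1 receptors and dampens their signal, and in most tissues it is expressed from the maternal allele. Its log2 signals were 9.13, 9.33, 8.85, 9.37 and 9.56 in STZ, BEZ mice, with a lowest, median and highest value of 8.21, 9.09 and 9.52 in STZ, SD and 7.98, 8.65 and 8.94 in Con, SD mice. All 5 STZ, BEZ mice were above the mean of the controls, and only replicate 3 (8.85) lay within their range. Of the STZ, SD mice, replicate 3 (8.21) lay among the lowest controls and the other 5 lay above all of them.

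Grb10 was 0.74 higher in STZ, BEZ than in Con, SD mice (SE 0.22, 95% interval 0.28 to 1.19, 1.67-fold, limma adjusted p = 0.0724). The call was close to the threshold of 0.10. It was lost when Con, SD replicate 1, 3 or 5 was left out (adjusted p = 0.123, 0.128 and 0.131) and when STZ, BEZ replicate 1, 2, 4 or 5 was left out (0.112, 0.177, 0.15 and 0.213), while the difference stayed between 0.65 and 0.84. Without the 5 arrays of high pancreas signal it was 1.05, with a single treated mouse and an adjusted p of 0.371. Without the 3 arrays of high epididymis signal it was 0.58, with an adjusted p of 0.0974. Over all alternatives the adjusted p ran between 0.0263 and 0.371. For STZ, SD vs. Con, SD the difference was 0.54 (SE 0.20), and for STZ, BEZ vs. STZ, SD it was 0.19 (SE 0.22, 95% interval -0.28 to 0.66, adjusted p = 0.841).

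Markers of other cells moved with Grb10. Low Grb10 values in Con, SD replicates 3 and 5 (7.98 and 8.25) and STZ, SD replicate 3 (8.21) were those of the 3 arrays of high epididymis signal, while every STZ, BEZ mouse had an epididymis mean of 6.72 or below. Con, SD replicate 1, at 8.16 for Grb10, had an epididymis mean of 8.36. Endothelial markers, 6 of 6 measured, had a mean of 9.85 to 10.11 in STZ, BEZ, 8.90 to 10.38 in STZ, SD and 9.07 to 10.25 in Con, SD mice, and the same 3 arrays were the lowest. Over the 18 arrays with group means taken off, Pearson's r of Grb10 was -0.762 with the epididymis and testis list and 0.851 with the endothelial list, both from the same libraries. Their part in the Grb10 values was not tested beyond leaving out the 3 arrays.

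RefSeq gives Grb10 separate starts, and both windows are shown because they differ most in CG content among the members. The first, chr11:12037371-12037670, minus strand, held 45 CG dinucleotides, more than 98.1% of all promoters, and the second, chr11:12027922-12028221, minus strand, held 9. CG dinucleotides are again in capitals. The array has 1 probe set for Grb10 and cannot tell transcripts of these starts apart.
Grb10, first start: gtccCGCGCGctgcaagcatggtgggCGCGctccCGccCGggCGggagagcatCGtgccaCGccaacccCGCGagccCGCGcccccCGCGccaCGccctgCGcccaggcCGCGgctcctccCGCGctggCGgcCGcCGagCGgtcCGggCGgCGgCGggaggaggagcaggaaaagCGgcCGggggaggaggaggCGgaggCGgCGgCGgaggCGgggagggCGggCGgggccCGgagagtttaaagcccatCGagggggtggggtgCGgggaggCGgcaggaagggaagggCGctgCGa
Grb10, second start: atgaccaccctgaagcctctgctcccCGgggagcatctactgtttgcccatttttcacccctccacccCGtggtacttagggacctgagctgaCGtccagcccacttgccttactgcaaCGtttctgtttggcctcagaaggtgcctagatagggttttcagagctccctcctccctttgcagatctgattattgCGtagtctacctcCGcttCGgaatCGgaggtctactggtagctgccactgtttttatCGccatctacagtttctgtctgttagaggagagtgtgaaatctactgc

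Igf2, the paternally expressed growth factor, was at 7.48, 7.46, 7.42, 7.71 and 7.68 in STZ, BEZ mice. Its lowest, median and highest values were 7.35, 7.65 and 8.11 in STZ, SD and 7.36, 7.56 and 7.81 in Con, SD mice. Only STZ, SD replicates 2 and 4, at 8.11 and 8.09, lay above all other mice, and both were also among the high arrays for Peg3 and Zim1. The difference was -0.16 for STZ, BEZ vs. STZ, SD (95% interval -0.44 to 0.13, limma adjusted p = 0.767) and -0.02 for STZ, BEZ vs. Con, SD (-0.30 to 0.25, adjusted p = 0.948). It was 0.13 (SE 0.12) for STZ, SD vs. Con, SD. The sign of the -0.02 turned when array medians were set equal, so it has no settled direction.

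Igf2r, the maternally expressed receptor that carries IGF2 to the lysosome for breakdown, was at 8.93, 8.98, 9.21, 8.90 and 9.06 in STZ, BEZ mice. The lowest, median and highest values were 8.62, 8.97 and 9.30 in STZ, SD and 8.46, 8.83 and 9.12 in Con, SD mice, so the groups overlapped. The difference was 0.25 for STZ, BEZ vs. Con, SD (95% interval -0.03 to 0.52, limma adjusted p = 0.33) and 0.01 for STZ, BEZ vs. STZ, SD (-0.27 to 0.29, adjusted p = 0.991). It was 0.23 (SE 0.12) for STZ, SD vs. Con, SD. Airn, the paternally expressed non-coding RNA that overlaps Igf2r on the opposite strand and silences it on that allele, was 0.55 higher in STZ, BEZ than in Con, SD mice (SE 0.18). The treated mice lay between 9.88 and 10.21 and did not overlap with the controls, at 9.01 to 9.81, yet the adjusted p was 0.114.

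Dlk1, also known as preadipocyte factor 1, is a paternally expressed membrane protein. It was at 7.80, 7.28, 7.60, 7.46 and 7.17 in STZ, BEZ mice, with a lowest, median and highest value of 7.41, 7.58 and 7.88 in STZ, SD and 7.26, 7.63 and 7.93 in Con, SD mice. All groups overlapped. The difference was -0.14 for STZ, BEZ vs. STZ, SD (95% interval -0.40 to 0.12, limma adjusted p = 0.77), -0.16 for STZ, BEZ vs. Con, SD (-0.41 to 0.09, adjusted p = 0.509) and -0.02 (SE 0.11) for STZ, SD vs. Con, SD. With the pancreatic list mean as a covariate, the difference between STZ, BEZ and Con, SD was -0.34 and was called. That fit called 4197 of all 19938 genes in this comparison. Pearson's r of Dlk1 with that list, group means taken off, was 0.613. The part of pancreatic signal in the Dlk1 values was not tested further. Meg3 and Rtl1, the nearest genes to Dlk1 among the lists, were at 0.14 (SE 0.10) and -0.05 (SE 0.12) for STZ, SD vs. Con, SD.

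Cdkn1c and Ndn act on the cell cycle. Cdkn1c, the maternally expressed inhibitor p57 of cyclin-dependent kinases, was at 7.54, 7.57, 7.86, 7.36 and 7.61 in STZ, BEZ mice, with a lowest, median and highest value of 7.28, 7.66 and 7.77 in STZ, SD and 6.89, 7.45 and 7.77 in Con, SD mice. Replicate 5 of the Con, SD mice was the lowest, and the other values overlapped. The difference was 0.01 for STZ, BEZ vs. STZ, SD (95% interval -0.29 to 0.31, limma adjusted p = 0.992) and 0.12 for STZ, BEZ vs. Con, SD (-0.17 to 0.41, adjusted p = 0.687). It was 0.11 (SE 0.13) for STZ, SD vs. Con, SD.

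Ndn encodes necdin, a paternally expressed protein of the MAGE family that restrains cell growth. It was at 9.37, 9.40, 9.64, 9.24 and 9.11 in STZ, BEZ mice, with a lowest, median and highest value of 8.41, 9.04 and 9.65 in STZ, SD and 9.09, 9.85 and 10.19 in Con, SD mice. The STZ, SD mice were on average lower, by a difference of -0.58 (SE 0.22), with replicates 2, 3 and 6 below every control. STZ, BEZ mice were 0.29 above STZ, SD mice (95% interval -0.22 to 0.79, limma adjusted p = 0.759), and their difference to Con, SD mice was -0.29 (-0.78 to 0.20, adjusted p = 0.544). Neither difference passed the test. Without STZ, SD replicate 6 the difference of STZ, SD to Con, SD was -0.45, and without the 3 arrays of high epididymis signal it was -0.69. Magel2, the neighbouring gene of the same family, was at -0.04 (SE 0.09) for STZ, SD vs. Con, SD.

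Ndn also varied with markers of other cells. Macrophage markers, 8 of 8 measured, had a mean of 9.31 to 9.82 in STZ, BEZ, 8.42 to 9.56 in STZ, SD and 8.91 to 9.84 in Con, SD mice. STZ, SD replicates 6 and 3, with the lowest Ndn values of 8.41 and 8.68, also had the lowest macrophage means, 8.42 and 8.67, whereas replicate 2, at 8.90 for Ndn, had a macrophage mean of 9.27. Adipose progenitor markers, 9 of 12 measured, had a mean of 9.63 to 9.73 in STZ, BEZ, 9.19 to 10.02 in STZ, SD and 9.58 to 10.02 in Con, SD mice. With group means taken off, Pearson's r of Ndn over the 18 arrays was 0.923 with the macrophage and 0.807 with the progenitor list. It was 0.758 with the endothelial, 0.685 with the white adipocyte and 0.427 with the mesothelial list. The part of these cells in the Ndn values was not tested.

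Nnat, which encodes neuronatin, a small proteolipid of the endoplasmic reticulum expressed from the paternal allele, varied most. Its log2 signals were 11.15, 11.14, 11.74, 11.33 and 9.72 in STZ, BEZ mice. The 6 STZ, SD mice were at 10.31, 6.82, 10.42, 6.47, 12.59 and 8.33, and Con, SD mice had a lowest, median and highest value of 9.70, 11.56 and 12.12. STZ, SD replicate 5 was thus the highest of all 18 mice, while replicates 4, 2 and 6 were the lowest. The means were 11.01 ± 0.76 in STZ, BEZ, 9.16 ± 2.37 in STZ, SD and 11.38 ± 0.79 in Con, SD mice (SD, n = 5, 6 and 7), and the SE of the differences was larger than that of 99.2% of all genes.

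The difference of Nnat was -2.23 (SE 0.78) for STZ, SD vs. Con, SD, a signal 4.68-fold lower. For STZ, BEZ vs. STZ, SD it was 1.86 (SE 0.85, 95% interval 0.07 to 3.64), which did not pass the adjustment over all genes (limma adjusted p = 0.469). It lay between 1.32 and 2.54 with 1 array left out, and was 0.40 without the 5 arrays of high pancreas signal, which leaves the treated mouse with the lowest Nnat value. The difference between STZ, BEZ and Con, SD was -0.37 (95% interval -2.10 to 1.36, adjusted p = 0.861). Its interval also draws on the spread of the STZ, SD mice, since 1 spread was fitted for all groups. The white adipocyte marker means of STZ, SD replicates 1 to 6 were 12.40, 11.71, 11.62, 11.38, 12.52 and 10.41. Replicate 5 was the highest of them for both. Replicate 3 had a lower marker mean than replicate 2 and a higher Nnat value, and replicate 6 had the lowest marker mean and more Nnat than replicates 2 and 4. With group means taken off, Pearson's r of Nnat with the white adipocyte list was 0.594 over the 18 arrays. Over the 18 arrays, with group means taken off, the gene most like Nnat was Lep, the adipocyte hormone leptin (r = 0.912, and 0.817 without the 2 farthest arrays), chosen after its values were seen. Lep, itself on the white adipocyte list, averaged 9.98 ± 0.94 in STZ, BEZ, 8.32 ± 2.17 in STZ, SD and 12.15 ± 0.47 in Con, SD mice. The part of adipocyte content in the Nnat values was not tested.

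The Nnat promoter is shown for comparison with that of Peg3, since both genes are paternally expressed and differed in direction. The window, chr2:157559828-157560127, plus strand, held 17 CG dinucleotides (in capitals), more than 68.6% of all promoters, and no match to GGGGCCCC.
Nnat: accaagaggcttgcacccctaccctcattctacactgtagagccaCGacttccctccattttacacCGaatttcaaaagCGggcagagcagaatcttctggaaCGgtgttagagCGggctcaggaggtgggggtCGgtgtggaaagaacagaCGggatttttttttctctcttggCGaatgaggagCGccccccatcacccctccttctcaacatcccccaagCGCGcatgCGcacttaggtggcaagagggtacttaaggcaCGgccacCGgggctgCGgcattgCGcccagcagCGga

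**Figure D3:**
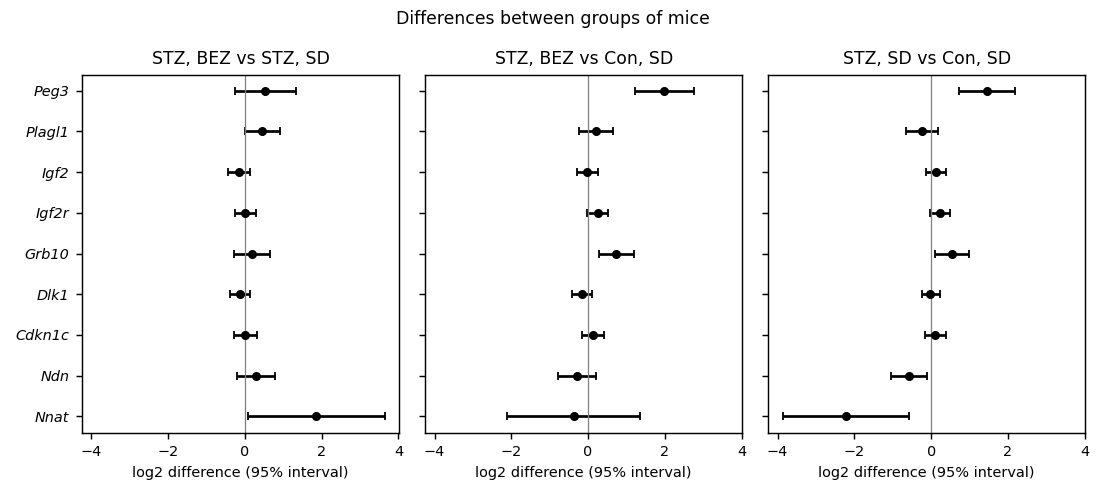
Log2 differences between group means (points) with 95% intervals (bars) of the 9 measured genes for STZ, BEZ vs. STZ, SD (left), STZ, BEZ vs. Con, SD (middle) and STZ, SD vs. Con, SD (right). Peg3 lies highest in both comparisons with Con, SD, at 1.99 and 1.46, and Nnat has the widest intervals, with -2.23 for STZ, SD vs. Con, SD.

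Counted together, 1 of the 9 genes (Peg3) was called in STZ, SD vs. Con, SD at an adjusted p under 0.10. In this comparison 10.3% of all genes were called, 5.82% as higher and 4.52% as lower, and nothing is read from the count because Peg3 was chosen on it. None of the 9 had groups without overlap, against 1.62% of all genes. The median difference of the 9 genes was 0.11, and that of all genes was -0.03. Between STZ, BEZ and STZ, SD limma called 0 of the 8 genes other than Peg3, with 1 (Nnat) at an unadjusted p under 0.05, and significance analysis of microarrays (SAM) also called 0. Among all genes 0.707% were called here, 0.682% higher and 0.0251% lower, and 1.49% had groups without overlap. The median of the 8 was 0.10, against 0.01 over all genes.

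Between STZ, BEZ and Con, SD 1 of the 8 genes other than Peg3 was called, Grb10, against 5.95% of all genes, 4.57% higher and 1.38% lower. Against that share, 1 of 8 is not read as a result about these genes together. Peg3 alone had groups without overlap, as had 6.80% of all genes. The median of the 8 was 0.05, and that of all genes -0.01. The 3 comparisons share arrays, so they are not independent of each other. By parental allele, the paternally expressed genes lay between -2.23 (Nnat) and 1.46 (Peg3) in STZ, SD vs. Con, SD. The maternally expressed Grb10, Igf2r and Cdkn1c were at 0.54, 0.23 and 0.11. Of the other genes listed as maternally expressed, 6 had a positive and 22 a negative difference (median -0.11). Those listed as paternally expressed had 5 and 12 (median -0.04), and all genes 8706 and 11232.

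Of 54 other genes listed as imprinted, 45 were measured, 17 of 22 on the paternal and 28 of 32 on the maternal list. Whether each of them is imprinted in adult fat was not measured here. In STZ, SD vs. Con, SD 8 of the 45 were called, 4 higher and 4 lower, where 10.3% of all genes were called, 5.82% higher and 4.52% lower. The median difference of the 45 was -0.07, and that of all genes was -0.03. On the paternal list Mest fell and Inpp5f, a phosphoinositide phosphatase, rose by 0.33 (SE 0.08, limma adjusted p = 0.0289). On the maternal list Zim1, Ppp1r9a (0.35, adjusted p = 0.0767), which encodes an actin-binding scaffold, and Cobl (0.37, adjusted p = 0.0896), an actin nucleator next to Grb10, rose. Slc22a2 (-0.42, adjusted p = 0.0459), an organic cation transporter near Igf2r, Tfpi2 (-0.51, adjusted p = 0.0749), a protease inhibitor, and Atp10a (-0.56, adjusted p = 0.0977), a phospholipid flippase, fell. Of 31 alternatives, Cobl was called in 12, Atp10a in 12, Tfpi2 in 17 and Ppp1r9a in 20, so none of these 4 calls was stable, and Inpp5f was called in 30.

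Mest, a paternally expressed gene of the alpha/beta hydrolase family, gave the largest difference of the lists and was called in all 31 alternatives in STZ, SD vs. Con, SD. Its log2 signals were 10.47, 9.35, 10.75, 9.48 and 9.31 in STZ, BEZ mice, with a lowest, median and highest value of 6.07, 7.51 and 11.04 in STZ, SD and 9.95, 11.01 and 11.99 in Con, SD mice. In STZ, SD mice all values but that of replicate 5 (11.04) lay at 8.24 or below, under every other mouse, and replicate 5 was also the highest for Nnat. The difference was -3.12 (SE 0.59, an 8.67-fold lower signal, limma adjusted p = 0.0105) for STZ, SD vs. Con, SD. It was 1.99 (SE 0.65, adjusted p = 0.251) for STZ, BEZ vs. STZ, SD and -1.12 (SE 0.63, adjusted p = 0.361) for STZ, BEZ vs. Con, SD. Each SE draws on all 3 groups, whose SDs were 0.69 (STZ, BEZ), 1.71 (STZ, SD) and 0.74 (Con, SD). With group means taken off, the r between Mest and Nnat was 0.651 over the 18 arrays and 0.423 without the 2 farthest. As for Nnat, the adipocyte marker mean was lowest in STZ, SD mice, and its part in the difference was not tested.

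**Figure D4:**
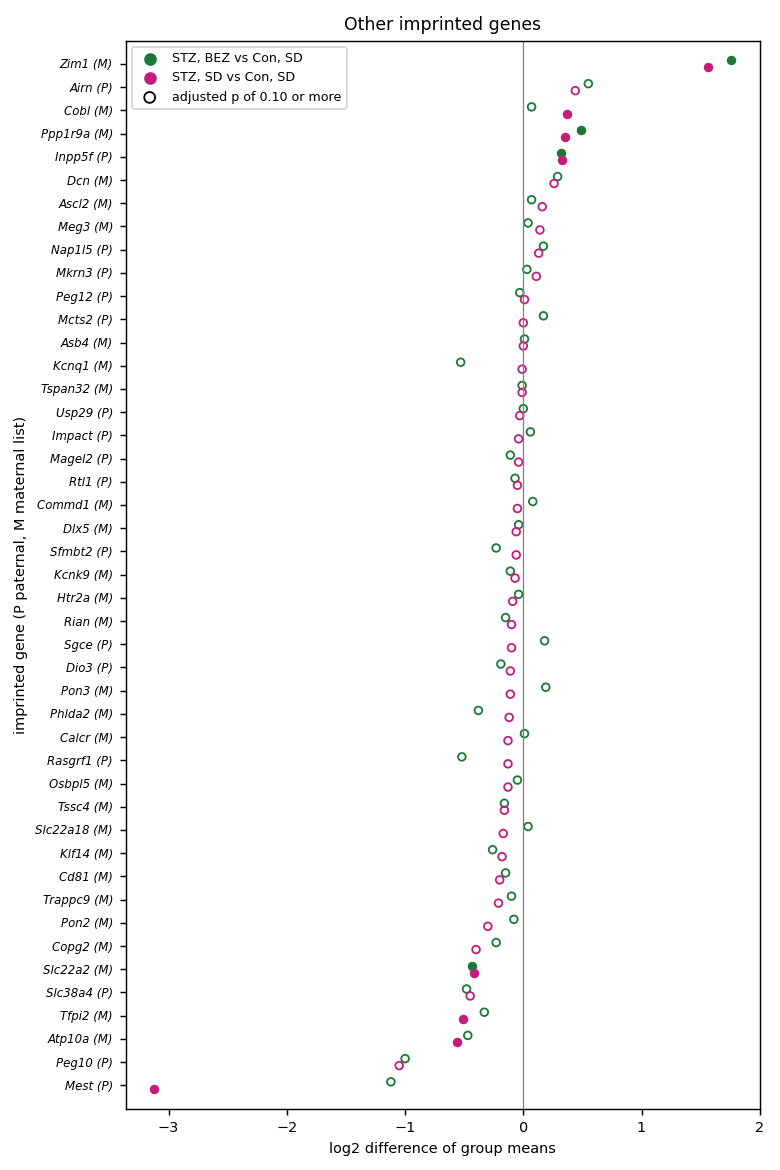
Log2 difference of group means (horizontal axis) of the 45 other imprinted genes measured, for STZ, BEZ vs. Con, SD (green) and STZ, SD vs. Con, SD (magenta), with P for the paternal and M for the maternal list. Filled points had an adjusted p under 0.10; Zim1 lies highest, at 1.76 and 1.56, and Mest lowest, with -3.12 in STZ, SD vs. Con, SD, and most genes lie close to 0.

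No other imprinted gene passed the test between both STZ groups. Limma called 0 of 45 in STZ, BEZ vs. STZ, SD, with 2 at an unadjusted p under 0.05 (Mest, and Cobl at -0.30 with an adjusted p of 0.456), and SAM called 0. Their median difference was 0.02. For STZ, BEZ vs. Con, SD 4 of the 45 were called, where 5.95% of all genes were, namely Ppp1r9a (0.49, limma adjusted p = 0.034), Zim1 and Inpp5f (0.32, adjusted p = 0.0569) as higher and Slc22a2 (-0.43, adjusted p = 0.0724) as lower, with a median of -0.04. Ppp1r9a was called in 28 of 31 alternatives, Inpp5f in 22 and Slc22a2 in 19, and each was lost without STZ, BEZ replicate 2 (adjusted p of 0.116, 0.186 and 0.202). Airn, Ppp1r9a and Zim1, 3 of the 45, had groups without overlap, where 6.80% of all genes had, so this count is close to that share. Peg10, a retrotransposon-derived paternally expressed gene, was at -1.05 (SE 0.49, adjusted p = 0.234) in STZ, SD vs. Con, SD.

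Of the IGF axis 15 of 16 listed genes were measured, and 3 were called in STZ, SD vs. Con, SD, where 10.3% of all genes were. Insr, the insulin receptor that Grb10 binds, rose by 0.59 (SE 0.11, limma adjusted p = 0.00784), and Igfbp3, an IGF binding protein, by 1.21 (adjusted p = 0.0905). Igfals, which holds IGFs in a ternary complex in the circulation, fell by 1.35 (adjusted p = 0.0225). Relative to Con, SD, STZ, BEZ mice had higher Insr (0.64, adjusted p = 0.00864) and Irs1, the insulin receptor substrate (1.21, adjusted p = 0.0499), 2 of 15 where 5.95% of all genes were called. Irs1 lost its call without STZ, BEZ replicate 2, 4 or 5 (adjusted p up to 0.142), and without the 3 arrays of high epididymis signal. Insr was called in all 31 alternatives in both comparisons, while Igfbp3 was called in 14. Igf1 itself was at 0.30 (SE 0.18, adjusted p = 0.412) in STZ, BEZ vs. Con, SD, and 0 of the 15 genes were called by limma or SAM in STZ, BEZ vs. STZ, SD, also at an unadjusted p under 0.05.

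Of 12 relatives of the members by sequence or family, 10 were measured, Zim1 among them, and 4 were called in STZ, SD vs. Con, SD and 3 in STZ, BEZ vs. Con, SD, where 10.3% and 5.95% of all genes were. Plag1, the zinc-finger relative of Plagl1 known as an activator of Igf2, rose by 0.64 in STZ, SD vs. Con, SD (SE 0.17, limma adjusted p = 0.0372), and so did Cdkn1b, the p27 relative of Cdkn1c, by 0.43 (SE 0.12, adjusted p = 0.0413). Grb14, the closest relative of Grb10 and likewise an inhibitor of the insulin receptor, fell by 1.38 (SE 0.30, adjusted p = 0.0158), opposite in direction to the 0.54 of Grb10. Relative to Con, SD, Cdkn1b (0.43, adjusted p = 0.0699) was also higher and Grb14 (-1.45, SE 0.32, adjusted p = 0.0199) lower in STZ, BEZ mice, while Plag1 was at 0.27 (adjusted p = 0.462). The call of Cdkn1b for STZ, BEZ held in 19 of 31 alternatives and that of Grb14 in 29. Between both STZ groups 0 of the 10 were called by limma or SAM, with 0 at an unadjusted p under 0.05.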

How the data were processed

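Visceral fat RNA of 18 mice was hybridised to Mouse Gene 1.0 ST arrays from Affymetrix. The deposited log2 signals were obtained by the authors with RMA (robust multi-array averaging, in version 1.2 of Expression Console). The genome build behind the probe sets is not given in the sources used here. RMA normalises the arrays to 1 distribution, so a shift shared by most genes would not be seen. Array medians lay between 6.76 and 6.87. Of 35556 probe sets 21789 had a single gene symbol in the platform's table of names, 1621 had several and 12146 none. Where a gene had several probe sets, the one of highest mean signal was kept (19938 genes, no filter on low values).

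Comparisons were made in limma (version 3.58.1, R 4.3.3), as 1 fit over all 18 arrays (15 residual and 2.44 prior degrees of freedom), with Benjamini-Hochberg adjustment over all genes and calls at an adjusted p under 0.10. The fit was tested on simulated data. Alternatives were SAM at a false discovery rate of 10%, other filters, scalings and fits, and leaving out each array. Named genes were all members, up to 4 called genes per list and comparison (or the 2 with the smallest p), and the 5 genes most like Peg3. Some further neighbours and relatives were named after their values were seen. The members and lists were chosen with earlier results of these data known. The number of arrays limits the precision. The p-values set a difference of group means against the spread between arrays of 1 mouse each, admixed signals of other tissues included. Promoters are from RefSeq, matched by symbol for 8 of 10 members. H19 and Cdkn1c had none.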

Additional observations from a re-analysis of the deposited data

Results flagged for a closer look

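Among the 27 sets of values of a member in a group, 1 had an array far from the rest. Nnat in Con, SD replicate 5 was at a log2 signal of 9.70, while the other 6 control mice lay between 11.35 and 12.12, so the gap made up 0.681 of the range of the group. Chance alone marks about 1 in 20 such sets. The same control mouse also had the lowest values of Plagl1, Igf2, Cdkn1c and Ndn in its group. Its mean of epididymis and testis markers, 11.57, was the highest of all 18 arrays, and its means of white adipocyte (12.05), macrophage (8.91) and endothelial (9.07) markers were the lowest of the Con, SD mice. Their part in these values was not tested.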

How the results depend on the processing

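Differences of single members were compared over 30 of the 31 alternatives, all but the stricter threshold, and most kept their direction. Whether a call was kept was compared only in both comparisons with STZ, BEZ and not for Peg3. There only Grb10 was called, in STZ, BEZ vs. Con, SD. Its call was kept in 22 of 30 alternatives and in 11 of the 18 with 1 array left out. The other members stayed uncalled, except Dlk1 in STZ, BEZ vs. Con, SD with the pancreatic list mean as a covariate. In STZ, SD vs. Con, SD the count of members called was 1, Peg3, which was chosen on this contrast, so the count and its stability are a description only. It was 2 with SAM, with limma on all probe sets and without dim genes (Nnat added), and 2 with the replicate block (Grb10 added). Without the 3 arrays of high epididymis signal it was 4 (Grb10, Ndn and Nnat added). Of the other imprinted genes 8 were called, against 3 at an adjusted p under 0.05, 3 with arrays of 2 groups only and 3 with the replicate block. Of the related genes 6 were called, against 1 with the replicate block. Over all 19938 genes 2063 were called here, against 1089 at an adjusted p under 0.05, 2404 with SAM and 2174 with limma on all probe sets. The count of all genes was 1022 with arrays of 2 groups only, 680 with the replicate block and 2386 without the 3 arrays. Without dim genes it was 2292 of 14953. Between STZ, BEZ and STZ, SD no member was called in any alternative, and with the pancreatic list mean as a covariate 2 other imprinted genes were called (Mest and Impact), against 0. Between STZ, BEZ and Con, SD 2 members were called, against 1 at an adjusted p under 0.05 and 1 without the 5 arrays of high pancreas signal. There, 4 other imprinted genes were called, against 1 at 0.05, 12 with SAM, 10 with arrays of 2 groups only, 1 with the replicate block, 9 with the covariate, 0 without the 5 arrays and 2 without the 3 arrays. Of the related genes 4 were called, against 10 with SAM, 7 with arrays of 2 groups only, 1 with the replicate block, 7 with the covariate, 1 without the 5 arrays and 2 without the 3 arrays. Over all genes 1187 were called between STZ, BEZ and Con, SD, against 602 at 0.05 and 4423 with SAM. Arrays of 2 groups only gave 2820, the replicate block 599, the covariate 4197 and the fit without the 3 arrays 760. Between the STZ groups, 141 of all genes were called, against 2093 with the covariate. The counts of imprinted and related genes are not read apart from these shifts over all genes. Leaving out the 3 arrays was added after seeing the data. The covariate and the 5 arrays were chosen after seeing earlier results of these data, and leaving out the 5 arrays keeps 1 treated mouse, assumed to vary like the other groups. Leaving out 1 array at a time gave 1 to 3 members, 4 to 11 other imprinted and 5 to 9 related genes in STZ, SD vs. Con, SD, 0 to 1 other imprinted genes in STZ, BEZ vs. STZ, SD, and 1 to 2 members, 0 to 6 other imprinted and 2 to 5 related genes in STZ, BEZ vs. Con, SD. The cause of these shifts was not tested.

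Small differences changed sign. In STZ, SD vs. Con, SD Dlk1 (-0.02) lay between -0.076 and 0.034 with 1 array left out. Between the STZ groups Cdkn1c (0.01) was at -0.012 and Ndn (0.29) at -0.080 without the 5 arrays, Cdkn1c was at -0.048 and Igf2r (0.01) at -0.066 without the 3 arrays, Igf2r was at -0.034 after quantile normalization, and leaving out 1 array gave -0.056 to 0.067 for Cdkn1c and -0.066 to 0.070 for Igf2r. For STZ, BEZ against Con, SD Igf2 (-0.02) was at 0.0020 with array medians set to 0, 0.11 with the covariate and 0.11 without the 5 arrays, and at -0.063 to 0.015 with 1 array left out. Peg3 without the 5 arrays was 1.23 above STZ, SD and 2.85 above Con, SD. Replicate numbers did not pair the mice: the mean correlation of same-numbered arrays was 0.062, 0.169, 0.162, 0.014 and -0.107 for numbers 1 to 5, and 2 of 15 arrays matched their own number best. Each member had 1 probe set, so the alternative of other probe sets of a member was not run. The array gives no detection level here, so whether a low signal such as that of Zim1 or Usp29 in Con, SD mice lies above background is not known.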
